A study of Homo sapiens with 3 samples.

Results

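The genes that wild-type p53 is best known to activate were examined for listed p53 peaks in VCaP cells, a line established from human prostate cancer whose own p53 carries the R248W mutation. The 9 loci were CDKN1A, MDM2, BBC3, BAX, GADD45A, FAS, TP53I3, RRM2B and DDB2, taken at fixed hg19 positions, and a peak belonged to a locus when it lay inside it or within 10 kb of either end. Chromatin was immunoprecipitated for p53 and sequenced (ChIP-seq) in cells with an shRNA against luciferase (the control), in cells with an shRNA against ERG, and in cells with an ERG shRNA numbered 2. All cells were VCaP and so carried the same p53 mutation, and each library pooled at least 3 immunoprecipitations. The antibody was DO-1, which recognises wild-type and mutant p53 alike, for the control and the first ERG shRNA, per the labels, and the label of ERG shRNA 2 names none. Each group had 1 library, so no difference could be checked against replicates or given a p-value, and comparisons are between libraries. For either ERG shRNA, an effect of the hairpin and one of its single library cannot be told apart.

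Of 35740 peaks in the 3 lists, 6 fell at the loci. The control list gave 4 of its 17986 peaks, the list of the first ERG shRNA (ERG shRNA below) gave 2 of its 17321, and that of ERG shRNA 2 gave none of its 433. The peaks lay at 3 loci, GADD45A, FAS and RRM2B. No list held a peak within 10 kb of CDKN1A, MDM2, BBC3, BAX, TP53I3 or DDB2.

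As background, wild-type p53 is a tetramer that binds a DNA element made of a pair of ten-base p53 half-sites, and after DNA damage it activates genes of cell cycle arrest, apoptosis, DNA repair and its own degradation. Arginine at the mutated position contacts DNA in the wild-type protein, and its replacement by tryptophan is known to impair binding to such elements. Mutant p53 of this kind can still be brought to chromatin by other transcription factors, and the series concerns ETS factors, of which ERG, highly expressed in VCaP through a gene fusion with TMPRSS2, is the one targeted here. Gene expression, and so the degree of knockdown, was not analysed here.

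The reference promoters of these genes were searched for p53 half-sites, and 3 of them are printed because they hold the closest matches. RefSeq promoter windows, which run from 250 bases before to 50 after a gene start in build GRCh38.p14, were found for 7 of the 9 genes, with 13 windows in all. GADD45A and RRM2B had no window. Elements outside the windows were not searched for, so a window without a match does not mean a gene without a p53 element. These windows were not placed on hg19, so no peak was measured against them base by base. Capitals mark the exact half-sites in DDB2 and FAS and the pair of half-sites in MDM2, and all 3 windows are on the plus strand. Not every looser match is in capitals. With at most 1 mismatch, the DDB2 and MDM2 windows each held 3 half-sites.
DDB2, chr11:47214724-47215023: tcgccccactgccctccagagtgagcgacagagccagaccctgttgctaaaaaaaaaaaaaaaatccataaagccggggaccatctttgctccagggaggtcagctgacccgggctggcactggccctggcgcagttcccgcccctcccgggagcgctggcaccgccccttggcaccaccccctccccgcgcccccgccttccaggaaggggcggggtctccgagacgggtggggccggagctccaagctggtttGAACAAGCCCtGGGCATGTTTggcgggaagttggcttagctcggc
MDM2, chr12:68808767-68809066: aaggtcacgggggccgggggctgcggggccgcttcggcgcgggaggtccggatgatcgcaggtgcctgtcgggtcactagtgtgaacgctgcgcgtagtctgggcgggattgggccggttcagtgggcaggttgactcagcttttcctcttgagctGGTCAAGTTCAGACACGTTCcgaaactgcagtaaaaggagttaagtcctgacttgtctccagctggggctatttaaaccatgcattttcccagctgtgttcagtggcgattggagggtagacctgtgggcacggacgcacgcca
FAS, chr10:88991181-88991480: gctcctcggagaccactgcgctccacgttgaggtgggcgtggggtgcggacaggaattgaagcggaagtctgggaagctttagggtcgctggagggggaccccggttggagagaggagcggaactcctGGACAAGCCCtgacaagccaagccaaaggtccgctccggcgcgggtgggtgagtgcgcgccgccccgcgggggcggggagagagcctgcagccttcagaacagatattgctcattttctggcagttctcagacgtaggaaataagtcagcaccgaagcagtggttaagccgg

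The DDB2 window held 2 exact half-sites, GAACAAGCCC and GGGCATGTTT, with 1 base between them. Only 10 of 35116 promoter windows of the whole table (0.0285%) held 2 exact half-sites 0 to 13 bases apart. The MDM2 window held GGTCAAGTTC and AGACACGTTC side by side, each with 1 mismatch to the consensus. Both kept the fixed C and G of the core, CNNG, but in AGACACGTTC the mismatch lies between them. A pair of that quality occurred in 1.84% of all windows, and in 3 of the 13 windows of these genes, which were the DDB2 window and a pair of MDM2 windows that overlap almost fully. FAS held a single exact half-site, GGACAAGCCC. At least 1 exact half-site was found in 6.63% of all windows and in 2 of the 13 windows of these genes, 1 of DDB2 and 1 of FAS. The consensus reads alike on both strands, so each match counts for both. These matches describe the reference sequence and say nothing of binding in VCaP. DDB2 and MDM2, which had the paired half-sites, had no listed peak within 10 kb in any library. Genome stretches (tiles) as long as either locus with its flanks mostly lacked one too. The share with a peak ran from 17.8% for DDB2 in the control to 22.3% for MDM2 in ERG shRNA. In ERG shRNA 2 it was at most 0.263%. An empty locus was thus the usual case at these lengths, and does not show that the paired half-sites were left unbound.

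Set against the genome, the count of loci with a peak was low in absolute terms but not below the background. In the control 3 of 9 loci had a peak (33.3%), whereas 14.4% of genome tiles as long as a locus with its 10 kb flanks held one. Weighting the 9 tile lengths equally gave 15.6%, which corresponds to 1.40 of 9 loci. With the first ERG shRNA, 2 of 9 loci had a peak (22.2%), against 14.4% of tiles, or 15.7% and 1.41 loci with equal weights. None of the 9 had one in the short list of ERG shRNA 2, against 0.176% of tiles, or 0.189% and 0.0170 loci with equal weights, so empty loci are near the background of that list. With 9 loci, a difference of 1 locus moves the share by 11.1 percentage points.

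Peaks whose q, the p corrected by the peak caller for multiple tests, was at most 0.05 gave a like picture. The control kept 2 of 9 loci, FAS and RRM2B, against 12.0% of tiles. The first ERG shRNA kept both of its loci, again FAS and RRM2B, against 11.2% of tiles. The ERG shRNA 2 list had none, against 0.0345% of tiles. These q values are not on the same scale in the 3 lists.

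**Figure D1:**
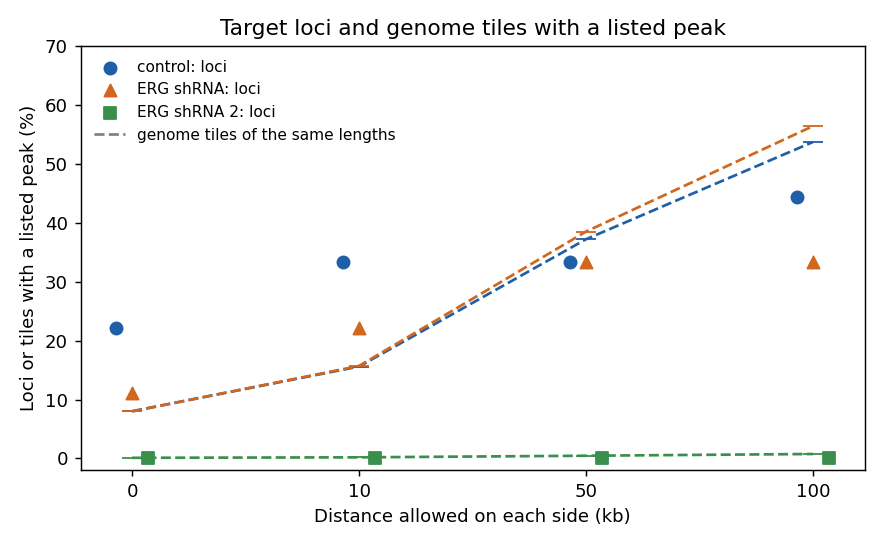
Share of the 9 loci (points) and of genome tiles of the same lengths, weighted equally over the 9 lengths (dashed lines), with a listed peak, by the distance allowed on each side in kb, with the 4 distances evenly spaced. Control and ERG shRNA loci lie above their lines at 0 and 10 kb and below them at 50 and 100 kb, and ERG shRNA 2 has no locus at any distance.

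At longer distances the loci were no longer above the tiles. Within 100 kb, 4 of 9 loci had a control peak, against 53.6% of tiles of that length, or 53.7% and 4.83 loci with equal weights. With the first ERG shRNA, 3 of 9 loci did, against 56.3% of tiles, or 56.4% and 5.08 loci with equal weights. ERG shRNA 2 again had none, against 0.755% of tiles. The control and ERG shRNA lists each held 11 peaks within 100 kb of the loci, and these fell at MDM2, GADD45A, FAS and RRM2B in the control and at MDM2, FAS and RRM2B in ERG shRNA. Some peaks lay just inside or just outside the 10 kb limit. The outermost control peak counted lay 7.15 kb from FAS with a fold of 3.65, and the first one not counted lay 12.2 kb from GADD45A with a fold of 3.82. For ERG shRNA a pair of peaks lay just outside, 12.3 and 12.5 kb below FAS, with folds of 3.58 and 2.98, and the one counted outside a gene, 1.39 kb above FAS, had a fold of 4.97.

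**Figure D2:**
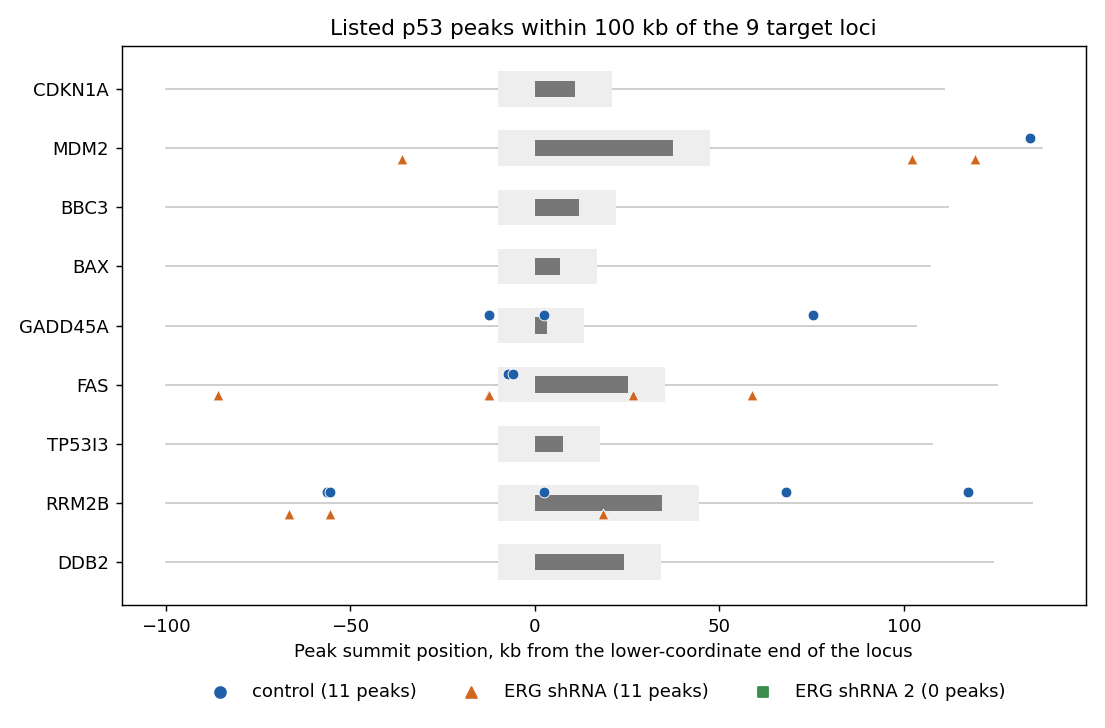
Summits of all listed peaks within 100 kb of each locus, in kb from the end of the locus with the lower coordinate, with the locus in dark grey and its 10 kb flanks in light grey. CDKN1A, BBC3, BAX, TP53I3 and DDB2 have no symbol, and control and ERG shRNA symbols at FAS and RRM2B stand apart except for 1 shared site 55.4 kb below RRM2B.

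The apoptosis genes comprised FAS, BBC3 and BAX. FAS, a cell surface death receptor, lies on chromosome 10 from 90750288 to 90775542 and was the locus with the most peaks. The control list had 2 peaks below it, which is upstream, since FAS is read towards higher coordinates. The nearer one ran from 90744263 to 90744424, was 162 bp wide and lay 5.86 kb from the locus. It had a pileup, the number of extended tags stacked at the summit, of 7, a −log10 p of 7.16, a −log10 q of 3.02 and a fold enrichment over local background of 5.31. The farther one, from 90742988 to 90743135, had a pileup of 5, a −log10 q of 1.16, so a q above 0.05, and a fold of 3.65. In RefSeq's GRCh38.p14 gene table ACTA2, which encodes smooth muscle actin, overlaps the low end of FAS, so the peaks upstream of FAS may equally be assigned to that gene.

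The single ERG shRNA peak at FAS lay on the opposite side, 1.39 kb beyond the high end, from 90776930 to 90777044. Its pileup was 5, its −log10 p 7.04, its −log10 q 2.81 and its fold 4.97. It was 32.5 kb from the nearest control peak, so the FAS locus was counted in both lists without a shared site. FAS also had the most ERG shRNA peaks within 50 kb of any of the 9 loci, 4, against 2 in the control.

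BBC3 encodes PUMA, which blocks survival proteins of the BCL2 family, and BAX encodes a protein that forms pores in the mitochondrial membrane. Both lie on chromosome 19, BBC3 from 47724079 to 47736023 and BAX from 49458072 to 49465055. The nearest control peaks lay 672 kb from BBC3 and 114 kb from BAX, and the nearest ERG shRNA peaks 169 kb and 237 kb. The gap at BBC3 was the widest of the 9 in the control list. Beyond it, the nearest control peak, 48408103 to 48408464, was among the strongest of its list, with a fold of 7.71 that exceeded 97.5% of control peaks, and an ERG shRNA peak overlapped it. ERG shRNA 2 listed no peak on chromosome 19 at all.

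CDKN1A and GADD45A act in growth arrest. CDKN1A, on chromosome 6 from 36644237 to 36655116, encodes p21, an inhibitor of cyclin-dependent kinases, and is the target most often used to read out wild-type p53, which binds well-known elements upstream of it. No peak of any list lay within 100 kb of it. The nearest control peak was 186 kb away with a pileup of 5 and a fold of 3.98. The nearest ERG shRNA peak was 141 kb away, on the other side, with a pileup of 3, the lowest in that list, and a fold of 3.31.

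GADD45A, on chromosome 1 from 68150744 to 68154021, encodes a small protein induced by DNA damage, and its known p53 element lies inside the gene, in the third intron. A control peak lay inside it, from 68153215 to 68153362, with its summit 2.50 kb from the low end and 0.772 kb from the high end. Whether it covers the intron was not tested, since exon positions in hg19 were not used here. The peak had a pileup of 5, a −log10 p of 4.24, a −log10 q of 1.16 and a fold of 3.65, so it did not reach a q of 0.05. Only 13.6% of control peaks had a lower fold, and 1189 control peaks had exactly the same pileup, p and fold. The nearest ERG shRNA peak was 137 kb away.

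RRM2B and DDB2 serve DNA repair. RRM2B encodes a subunit of ribonucleotide reductase that supplies nucleotides for repair, lies on chromosome 8 from 103216729 to 103251346 and is read towards lower coordinates. It was the single locus with a peak inside it in more than 1 list. RRM2B is among the longer loci, and tiles as long as it with its 10 kb flanks held a control peak in 21.1% and an ERG shRNA peak in 21.4%. For tiles as long as a locus without flanks, the highest shares over the 9 lengths were 15.5% and 15.6%. The control peak, from 103219062 to 103219210, lay near the low end, where the gene ends, with its summit 2.38 kb inside. Its pileup was 7, its −log10 q 3.02 and its fold 5.31, the same scores as those of the stronger FAS peak and of 1147 control peaks in all. The ERG shRNA peak, from 103235058 to 103235229, lay near the middle, 18.4 kb from the low end and 16.2 kb from the high end, with a pileup of 4, a −log10 q of 1.64 and a fold of 3.94. The gap between both peaks was 15.8 kb.

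Farther out, RRM2B had the strongest peaks within 100 kb of any of the 9 loci. At 55.4 kb below it, a control peak from 103161186 to 103161347 with a pileup of 10 and a fold of 7.30 and an ERG shRNA peak from 103161165 to 103161307 with a pileup of 11 and a fold of 9.94 overlapped each other. These folds exceeded 96.7% and 99.1% of their own lists. It was the 1 site shared between lists within 100 kb of any of the 9 loci.

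DDB2, on chromosome 11 from 47236493 to 47260769, encodes the subunit that recognises ultraviolet damage in DNA. Its promoter window held the paired half-sites printed above. The nearest control peak was 116 kb away, with a fold of 5.31, and the nearest ERG shRNA peak 124 kb away, with a fold of 4.87. That ERG shRNA peak, 47112299 to 47112413, was overlapped by a control peak.

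The remaining genes were MDM2 and TP53I3. MDM2, the ubiquitin ligase that marks p53 for degradation, lies on chromosome 12 from 69201956 to 69239324. The nearest control peak was 96.8 kb away with a fold of 3.98, and the nearest ERG shRNA peak 35.9 kb away with a fold of 4.07. ERG shRNA listed 3 peaks within 100 kb of MDM2, with folds from 3.84 to 4.14, and none overlapped a control peak. TP53I3, an oxidoreductase gene induced during p53-driven apoptosis, lies on chromosome 2 from 24300305 to 24307919. Its nearest control and ERG shRNA peaks were 170 kb and 169 kb away on the same side and did not overlap.

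**Figure D3:**
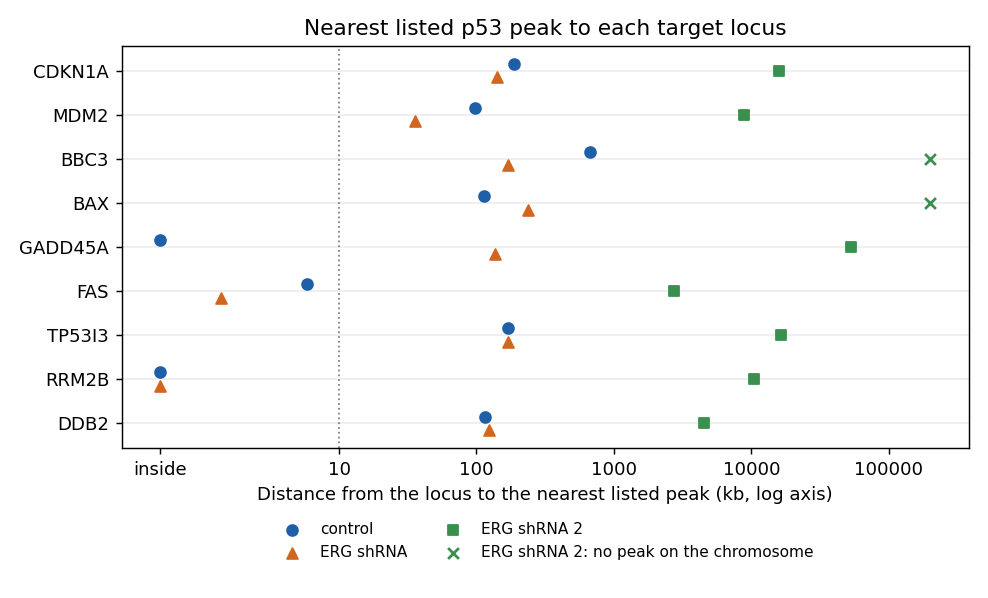
Distance in kb (log axis) from each locus to the nearest listed peak of each list, with the 10 kb limit dotted, peaks inside a locus at the left edge, and crosses for ERG shRNA 2 where the chromosome has no peak. Away from GADD45A, FAS and RRM2B, control and ERG shRNA distances run from 35.9 to 672 kb, and those of ERG shRNA 2, over the 7 loci with a peak on their chromosome, from 2.72 Mb at FAS to 52.98 Mb at GADD45A.

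Distances to the nearest peak had similar medians in the first pair of lists. Over the 6 loci without a control peak, they ran from 96.8 to 672 kb with a median of 143 kb. Over the 7 loci without an ERG shRNA peak, they ran from 35.9 to 237 kb with a median of 141 kb. In ERG shRNA 2 the closest peak to any locus was 2.72 Mb from FAS and the farthest 52.98 Mb from GADD45A, with no peak on the chromosome of BBC3 and BAX.

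The 6 peaks at the loci were of ordinary strength for their lists. In the control the stronger peak at FAS and the RRM2B peak exceeded 77.6% of the list in fold, and the other FAS peak and the GADD45A peak exceeded 13.6%. Their folds of 5.31 and 3.65 stand beside a list median of 4.37 and a maximum of 28.5. In ERG shRNA the FAS peak exceeded 70.7% of the list and the RRM2B peak 30.9%, with folds of 4.97 and 3.94 beside a median of 4.18. None of the 6 belonged to the peaks with a fold of at least 10, of which the control had 138 and ERG shRNA 137. The local background was at the genome-wide value of the library for 3 of the 6 peaks. It was 1.27 times that value at GADD45A and at the weaker FAS control peak, and 1.3 times at the ERG shRNA peak of RRM2B. The median over the whole list was 1.27 times in the control and 1.32 times in ERG shRNA.

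**Figure D4:**
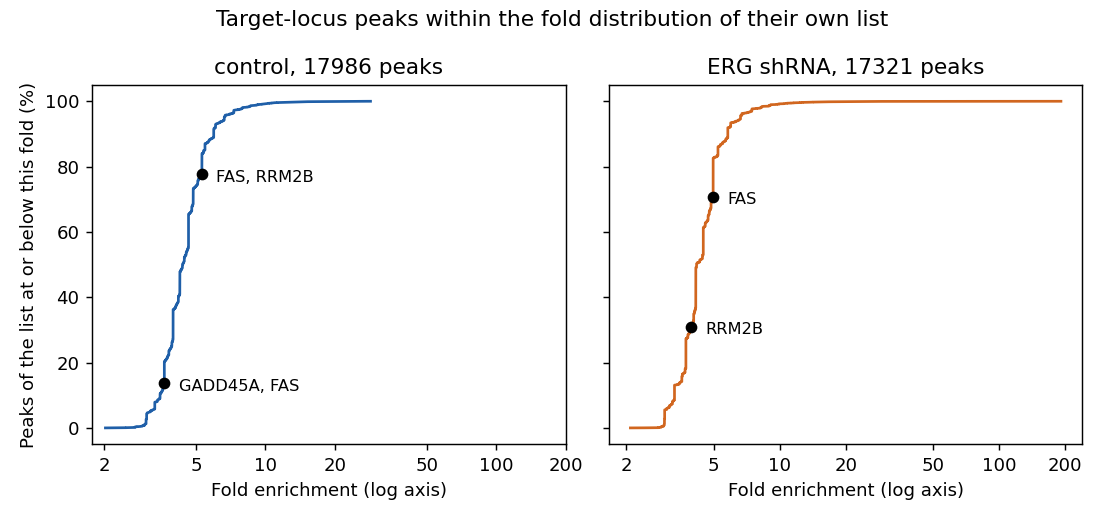
Cumulative share of peaks (%) by fold enrichment (log axis) in the control and ERG shRNA lists, with the peaks at the target loci as black points at the share of the list with a lower fold. All 6 lie on the steep middle of the curves, at folds of 3.65 to 5.31, and the vertical steps are peaks with identical scores.

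None of the 4 control peaks at the loci was overlapped by an ERG shRNA peak, and neither ERG shRNA peak by a control peak. Across the whole lists the overlapped share was 13.5% in the control and 14.0% in ERG shRNA, so with 4 and 2 peaks an absence of shared sites is near that background. Within 1 Mb of the loci the shares were higher, 34 of 121 in the control (28.1%) and 34 of 119 in ERG shRNA (28.6%). BBC3 carried most of this, where 26 of 42 control peaks were overlapped, as were 26 of 39 from ERG shRNA. All 42 control peaks lay at least 672 kb from BBC3, and only 3 of the 39 from ERG shRNA lay within 500 kb. The 1 Mb surroundings of BBC3 were dense, with 20.9 control and 19.4 ERG shRNA peaks per Mb. Chromosome 19 as a whole had 3.94 and 4.04. At the other 8 loci 9 of 84 control peaks were overlapped (10.7%), as were 9 of 81 from ERG shRNA (11.1%), with some peaks between BBC3 and BAX counted for both genes.

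Depth limits what an unlisted site means. The control held 9258451 tags, ERG shRNA 4853617 and ERG shRNA 2 52175068. The lowest listed pileup was 4 tags in the control and 3 in ERG shRNA. In ERG shRNA 2 it was 5.5 after scaling to the smaller input, which stands for 20 tags. Per 1000000 tags of the library these limits were 0.432, 0.618 and 0.383. A control pileup of 5, as at GADD45A, corresponds to 2.62 tags at the depth of ERG shRNA (exact Poisson 95% interval 0.851 to 6.12), under its lowest listed value. A pileup of 7, as at RRM2B, corresponds to 3.67 (1.48 to 7.56). The intervals cover counting error only, and not that peaks are listed for being high. Both intervals include 3, so they cannot decide whether the same pileup per tag would have been listed in ERG shRNA at these sites. A missing ERG shRNA peak there therefore does not show a lower pileup. The conversion uses tag counts alone and takes no account of the length to which tags were extended. That length differed, at 148 bp for the control against 115 for the first hairpin. In the other direction the ERG shRNA pileups of 5 at FAS and 4 at RRM2B correspond to 9.54 (3.10 to 22.3) and 7.63 (2.08 to 19.5) in the control, with intervals that reach below its lowest listed pileup. On the scale of ERG shRNA 2 the 6 pileups correspond to 7.76 to 14.8, above 5.5, but the lower ends of their intervals, 2.52 to 4.80, lie below it. The 5.5 is only the lowest of that list, whose median pileup was 15.96. Its peaks had a median local background 5.26 times the genome-wide value and a median −log10 q of 0.0. Peak lists give no value at an unlisted site, so an absent peak shows a pileup under the authors' p cutoff and not an absence of p53.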

How the data were processed

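Binding of p53 was measured by ChIP-seq in 3 VCaP libraries, 1 per group. The submitters' processing notes name hg19 and the tools MACS2, bedtools, Bowtie2 and Picard 2.14.0. Peaks were called per library with MACS 2.2.7.1, per the file headers, against an input of 14360465 tags. The p cutoff was 0.001, a position kept at most 1 tag, and the larger of library and input was scaled down. The deposited pileup is a coverage signal in extended tags. The deposited −log10 p and −log10 q columns have damaged names, so their order follows the MACS layout. The deposited fold enrichment divides pileup plus 1 by local background plus 1, a ratio. All are the authors' own scores, used within a list.

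The 9 loci and the 10 kb rule were chosen with earlier results of these data known, and all 9 genes were named whatever their peaks. Tiles as long as each padded locus were laid end to end on chromosomes 1 to 22 and X, assembly gaps included, and the 9 lengths were pooled. Tiles are not matched to genes. Overlap meant at least 1 bp between lists. Local background was recovered from pileup and fold. The window rule was tested on 200 simulated loci with 0 errors, and 108 counts at the loci equalled those of bedtools 2.31.1. Analysis ran in Python 3.11.15 (pandas 2.3.3, matplotlib 3.10.9, scipy 1.17.1, numpy 2.4.6). Promoter sequences are RefSeq's, in GRCh38.p14. Other p53 pathway genes were not analysed here, since no hg19 annotation was used. Distances, stricter lists, summits, other tiles and looser motifs were the alternatives.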

Additional observations from a re-analysis of the deposited data

How the results depend on the processing

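Of 44 alternatives, 27 stayed within 1.5 times the count, or within the counting interval of a share, and 17 moved. The 27 include the counts for ERG shRNA 2, which were 0 at every distance and threshold tried. At its background share only 0.0681 of 9 loci would hold a peak even within 100 kb, so these counts had little room to move. The 17 include every alternative share of tiles. Loci with a control peak numbered 2 to 4 throughout. Counting peaks inside the loci alone gave 2 control peaks, and 1 ERG shRNA peak at 1 locus. Within 50 kb ERG shRNA had 6 peaks, and within 100 kb the control and ERG shRNA had 11 each. A q of at most 0.05 left 2 control peaks. A fold of at least 5 left 2 control peaks, and 0 peaks and 0 loci in ERG shRNA, where the FAS peak had 4.97. The share of tiles with a peak was 14.6%, 14.0% and 0.165% for control, ERG shRNA and ERG shRNA 2 on the chromosomes of the 9 genes, and 15.2%, 13.5% and 0.0854% within 5 Mb of them. Allowing 1 mismatch raised the genes with a half-site in a promoter window from 2 to 4. Of the 13 windows of the 7 genes that had any, several of which overlap, 10 then held a half-site, against 45.1% of all windows. The pair of half-sites, added after seeing the data, gave 2 genes. Changes in the counts follow from more or fewer bases or peaks being admitted. No paired analysis was possible because single libraries leave nothing to pair.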
